A study of Mus musculus with 12 samples.

Results

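Of the 22016 Ctr9 peaks called in NIH3T3 cells, 6619 (30.1%) were found in these cells only and carried no H3K27ac. They were chosen as the peaks with a −log10 q of at least 5 that shared no base with a Ctr9 peak of mouse embryonic stem cells (mESCs) and none with an H3K27ac peak of NIH3T3 cells. Of the 15196 peaks that reached this q, 6465 overlapped 1 of the 44748 Ctr9 peaks of mESCs and 3708 overlapped 1 of the 34241 H3K27ac peaks of NIH3T3 cells, which left the members as 43.6% of them. The weakest member had a −log10 q of 5.0091 and a fold enrichment of 3.83, and the strongest peak left out by q alone had 4.99992 and 3.28. Another 3862 peaks met both overlap conditions below that q. Being absent from the mESC list and from H3K27ac peaks was the rule itself and is no result.

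The study mapped Ctr9, a core subunit of the Paf1 complex, in 2 mouse cell types by ChIP-seq with an anti-GFP antibody. The cells were E14TG2a (E14) mESCs, derived from the inner cell mass, and NIH3T3, an immortalized fibroblast line from mouse embryos. Both were Ctr9-GFP knock-in lines with GFP fused to the end of Ctr9, and both were cultured in Glasgow minimum essential medium with fetal bovine serum and LIF, the cytokine that keeps mESCs undifferentiated. H3K27ac was mapped in both cell types and RNAPII phosphorylated at Ser2 in mESCs. NELFA-GFP and RNAPII phosphorylated at Ser5 were mapped in mESCs that carried GFP-tagged NELFA. The mRNA of both cell types was sequenced, and each of these data sets has 1 library per cell type. Whether the cells for H3K27ac, Ser2 and mRNA carried a tag is not stated. No group has a replicate, so every difference below compares these libraries and has no test, and intervals cover counting error only. The peak lists hold no read counts, so the ChIP-seq depth is unknown, whereas the RNA-seq libraries hold 26400407 (mESCs) and 28849497 (NIH3T3) estimated counts.

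The Paf1 complex travels with elongating RNA polymerase II (RNAPII), helps it through chromatin, and links it to histone modification and to 3′ end processing of the transcript. H3K27ac, the acetylation of lysine 27 on histone H3, lies at active promoters and enhancers and is mostly missing from the transcribed bodies of genes and from the stretch past their ends. Fibroblasts make and remodel the extracellular matrix through collagens, matrix proteins and their crosslinking enzymes, and they hold on to it through integrins and actin filaments.

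The sequences shown are the 101 bps centred on the summit of the 5 members with the highest fold enrichment and of the strongest member at the 3 collagen genes Col1a2, Col5a1 and Col1a1, since these carry the positions described below. They are from the plus strand of the mouse genome GRCm38 (mm10 coordinates, RefSeq), and capitals mark a match to any of the 5 motifs searched on both strands.
Prrx1, chr1:163243936-163244036: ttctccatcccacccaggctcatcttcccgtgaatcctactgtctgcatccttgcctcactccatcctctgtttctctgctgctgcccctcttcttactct
Tspan11, chr6:127955736-127955836: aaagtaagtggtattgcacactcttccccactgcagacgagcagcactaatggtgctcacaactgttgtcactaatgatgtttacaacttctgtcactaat
Hmga2, chr10:120358502-120358602: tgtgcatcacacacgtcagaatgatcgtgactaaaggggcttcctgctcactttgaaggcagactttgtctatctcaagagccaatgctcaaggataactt
AL805899.1, chr4:88906753-88906853: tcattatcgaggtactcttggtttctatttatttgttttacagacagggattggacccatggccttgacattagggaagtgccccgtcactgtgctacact
Cemip, chr7:83931353-83931453: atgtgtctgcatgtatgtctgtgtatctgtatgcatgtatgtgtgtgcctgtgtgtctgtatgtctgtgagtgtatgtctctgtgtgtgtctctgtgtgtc
Col1a2, chr6:4541825-4541925: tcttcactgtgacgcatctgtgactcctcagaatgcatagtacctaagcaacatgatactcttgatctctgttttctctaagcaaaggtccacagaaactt
Col5a1, chr2:27980007-27980107: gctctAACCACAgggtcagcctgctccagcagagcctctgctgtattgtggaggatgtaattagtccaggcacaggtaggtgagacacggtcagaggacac
Col1a1, chr11:94950212-94950312: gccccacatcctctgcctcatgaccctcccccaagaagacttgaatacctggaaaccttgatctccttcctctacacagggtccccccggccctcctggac
AL805899.1 is a lincRNA gene on the minus strand that holds the microRNA gene Mir31. The windows of Prrx1, Tspan11, Hmga2, AL805899.1, Cemip and Col1a2 lay past the annotated end of these genes and in no annotated gene. The Col5a1 window was wholly intronic, and 22 bases of the Col1a1 window were exonic. Only the Col5a1 window held a motif, the RUNX letters on the minus strand.

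Each of the 5 motifs, which are letters that these transcription factor families bind, was rare in the 6618 member windows on assembled chromosomes. TGTGGTT (RUNX) was in 2.90% of them, TGANTCA (AP-1) in 2.77%, TGGAATG (TEAD) in 1.53%, GGGCGG (SP/KLF) in 1.28% and CCGGAAG (ETS) in 0.438%. Over all 22015 NIH3T3 Ctr9 windows the shares were 2.57%, 2.72%, 1.49%, 3.33% and 0.650%. GGGCGG, the box typical of CpG-rich promoters, was the motif for which the members lay farthest below the full list, and among NIH3T3-only peaks with H3K27ac it reached 10.6%. CG dinucleotides followed the same order, with at least 5 of them in 2.24% of member windows, 10.1% of all NIH3T3 windows and 36.7% of those with H3K27ac. The rule left out peaks with H3K27ac, so the low shares of this box and of CG dinucleotides are in part set by the rule. The median GC share of the members was 47.5%, against 41.7% for the genome and 53.5% for the peaks with H3K27ac. Within 1 kb of a gene end, AATAAA, the usual poly(A) signal, stood on the strand of the gene in 28 of 403 member windows (6.95%; 95% exact interval 4.67 to 9.89%) and in 4.40% of such windows over the whole list.

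The members lay in the bodies of genes. By the position of the summit, 4526 members (68.4%; 95% exact interval 67.3 to 69.5%) were inside a protein-coding gene and over 1 kb from its start and end, 389 (5.88%) within 1 kb of an end, 107 (1.62%) within 1 kb of a start, and 1596 (24.1%) outside. Gene bodies make up 36.5% of the genome, so the members were there 1.87 times as often as an even spread would give. They were 4.12 times as frequent near ends and 1.07 times near starts. All 22015 NIH3T3 Ctr9 peaks had 57.1% in bodies (1.56 times), 9.94% near ends (6.97 times) and 20.9% outside. The members were thus more often in bodies and less often near ends than the full list.

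**Figure D1:**
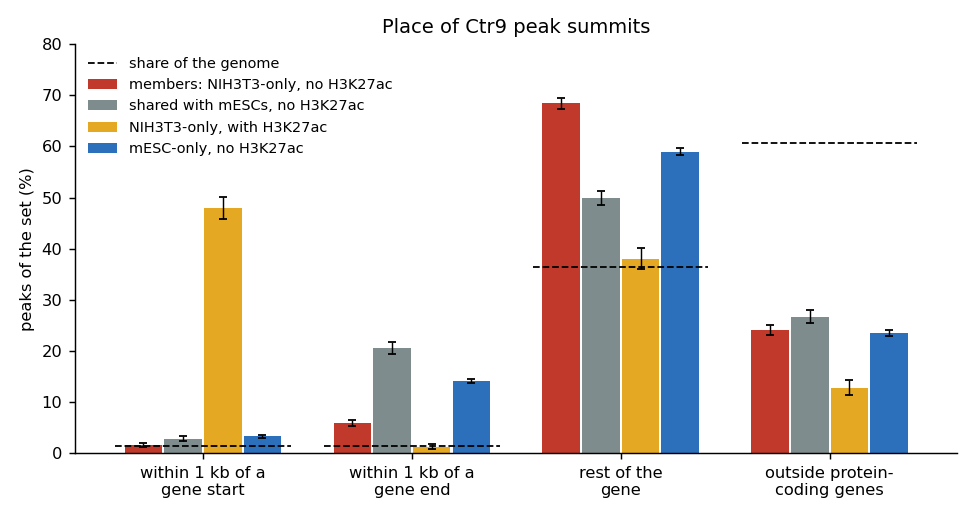
Share of Ctr9 peak summits (%) within 1 kb of a gene start, within 1 kb of a gene end, in the rest of the gene and outside protein-coding genes, for the 6618 members and 3 other sets. Bars carry 95% exact intervals, and dashed lines give the share of the genome. The members stand highest in gene bodies (68.4%) and lowest near starts (1.62%).

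The 4869 NIH3T3 peaks that were shared with mESCs and also had no H3K27ac were less often in gene bodies (49.9%) and more often near ends (20.5%). The 22060 mESC-only peaks without mESC H3K27ac were chosen the same way from the other line and gave 59.0% in bodies and 14.1% near ends. The 2112 NIH3T3-only peaks with H3K27ac were at starts in 47.9% of cases, and all NIH3T3 Ctr9 peaks in 12.1%. Since the rule left out peaks with H3K27ac, the low share of members at starts is in part set by the rule. Exons held 16.4% of the members in gene bodies (742 of 4526), 31.2% of the shared peaks, 24.4% of the mESC-only peaks and 14.1% of the NIH3T3-only peaks with H3K27ac, while exons are 6.96% of these bases.

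Along genes of at least 10 kb cut into 10 equal segments, the members thickened towards the end, as did all NIH3T3 Ctr9 peaks. Segment 1 at the start held 8.32% of the 4664 pairs of a member and a gene, segment 3 held the lowest share at 5.42%, and segment 10 at the end held 20.7%. All NIH3T3 Ctr9 peaks had 17.5% in segment 1 and 20.6% in segment 10. Since the rule left out peaks with H3K27ac, the lower share of members in segment 1 is in part set by the rule. Of the member pairs, 65.7% were past the midpoint of the gene, against 59.5% for all NIH3T3 Ctr9 peaks. The share was 76.8% for shared peaks, 64.9% for mESC-only peaks and 17.2% for NIH3T3-only peaks with H3K27ac.

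**Figure D2:**
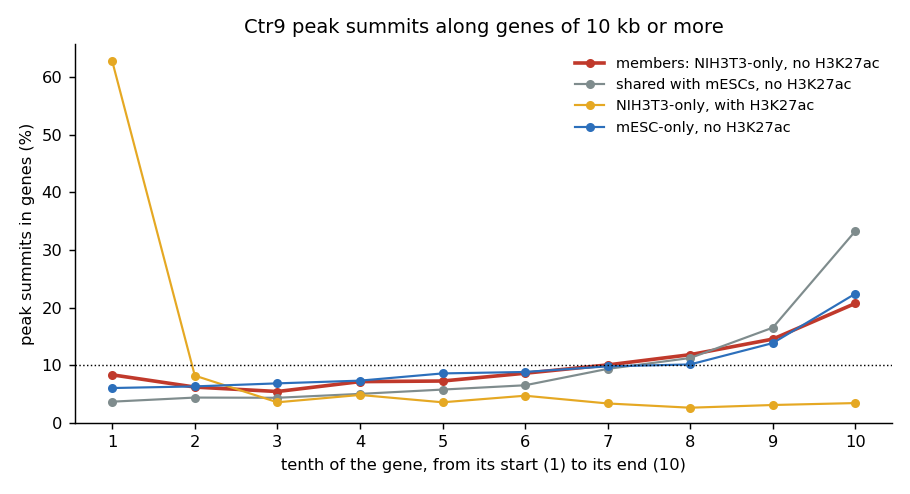
Share of peak summits (%) in each of 10 equal segments of genes of 10 kb or more, from start to end, for the members and 3 other sets. The dotted line marks an even share. The members climb from 5.42% in segment 3 to 20.7% in segment 10, as mESC-only peaks do, and peaks with H3K27ac pile up in segment 1. All NIH3T3 Ctr9 peaks, not drawn, had 20.6% in segment 10.

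Members outside genes were mostly downstream of them. Of the 1596, 1348 (84.5%; 95% exact interval 82.6 to 86.2%) were downstream of the nearest protein-coding gene and 248 upstream. The downstream share was 90.3% for shared peaks, 71.9% for mESC-only peaks and 52.8% for NIH3T3-only peaks with H3K27ac. Distances of 1 to 5 kb past the end held 600 and of 5 to 10 kb another 457, and these 1057 belonged to 562 genes. Of these genes, 526 (93.6%) had a TPM of at least 1 in NIH3T3 cells, against 49.2% of all protein-coding genes. Their median TPM was 28.3 in NIH3T3 cells and 12.6 in mESCs. Together with the members at ends, 1446 members (21.8%) lay within 1 kb of an end or up to 10 kb past it. The longest runs had their nearest gene far off: 73 members came after Myc, most of them in the lincRNA gene Pvt1, and 17 came 119413 to 178219 bps after Slc6a15, a transporter gene whose TPM was 14.03 in mESCs and 1.96 in NIH3T3 cells. At that distance the TPM of Slc6a15 need not reflect the run, and noncoding genes with members are given below. Runs closer to a gene included 14 members after Hgf, the hepatocyte growth factor gene, 12 after Fbln2, a matrix glycoprotein gene, and 11 after Anxa5, which encodes a phospholipid-binding annexin. Hgf had a TPM of 47.8 in NIH3T3 cells and was listed at 0 in mESCs, Fbln2 went from 0.585 in mESCs to 304.1, and Anxa5 from 15.9 to 357.1. These genes were chosen after their values were seen.

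The strongest members were wide peaks over the ends of genes. Fold enrichment, the ratio of the ChIP signal at the summit to the local background, had a median of 4.57 over the members, and the median width was 412 bps. The highest value was 29.2 at Prrx1, a homeobox factor of mesenchymal cells, in a peak of 31100 bps whose summit was 1133 bps past the gene end although 93.1% of the peak covered the gene. Tspan11, a tetraspanin gene, followed at 23.7 with the summit 1809 bps past its end. Hmga2, which encodes a chromatin architectural protein, reached 17.0, 2723 bps past its end. A peak of 21018 bps reached 16.4 with its summit 3052 bps past the end of AL805899.1 and covered its 3′ side. Cemip, a hyaluronan-degrading protein gene, reached 16.3, 1454 bps past its end. All of these genes had more RNA in NIH3T3 cells. Prrx1 had a TPM of 182.6 against 0.0669 in mESCs, Hmga2 244.03 against 12.9, AL805899.1 45.3 against 0.215, and Cemip 54.9 against 1.61, while Tspan11 had 37.3 and was listed at 0 in mESCs.

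Many members were near an mESC Ctr9 peak, although the rule let none overlap one. The rule used the mESC Ctr9 and NIH3T3 H3K27ac lists, so the gaps to both are shaped by it. The gap to the nearest mESC Ctr9 peak had a median of 4.76 kb, 21.8% of the members were within 1 kb of such a peak, 50.8% within 5 kb, and 28.2% over 50 kb away. Of the 5022 members at a protein-coding gene (summit in the gene or within 1 kb), 3273 (65.2%) were at a gene that also held an mESC Ctr9 peak and 1749 (34.8%) at 1 of 437 genes that held none. Counted by gene, 74.4% of the 1702 genes with members and a TPM held an mESC Ctr9 peak. The share was 37.3% of all protein-coding genes and 81.6% of the 3014 that held other NIH3T3 Ctr9 peaks but no member. For mESC-only peaks without H3K27ac, the median gap to a Ctr9 peak of the shorter NIH3T3 list was 25.5 kb. H3K27ac was farther from the members than mESC Ctr9, with a median gap of 13.7 kb and 8.25% of the members within 1 kb. The median gap to H3K27ac of the same line was 11.8 kb for shared peaks and 11.1 kb for mESC-only peaks. The median gap from a member to the nearest other member was 0.746 kb, against 0.508 kb among shared peaks and 0.551 kb among mESC-only peaks.

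The 5022 members fell on 1706 protein-coding genes, of which 804 had 1 member, 266 had at least 5, 75 at least 10 and 22 at least 20. Among 21905 protein-coding genes with a TPM, 7.77% had a member and 1.21% had at least 5. The 266 genes took 2680 of the members (53.4%). In genes with at least 10, the median spacing between neighbouring members had a median of 1.76 kb. Such counts depend on whether nearby peaks are joined: with members up to 3 kb apart joined, 3149 stretches remained, 59 genes had at least 5, and the 104 members of Asap1 became 13 and the 44 of Cemip became 1.

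The 20 genes with the most members were mostly genes that NIH3T3 cells transcribed more. They held 827 members, 17 of them had at least 2 times the TPM in NIH3T3 cells (on TPM + 1) and 0 had at least 2 times the TPM in mESCs, 14 had no Ctr9 peak in mESCs, and 19 had H3K27ac within 1 kb of their start in NIH3T3 cells. Over all protein-coding genes 37.3% had an mESC Ctr9 peak, so that most genes had none, and 44.7% had H3K27ac at their start. The median TPM of the 20 genes was 56.1 in NIH3T3 cells and 8.69 in mESCs. Over all protein-coding genes, 11.3% had at least 2 times the TPM in NIH3T3 cells and 13.5% in mESCs.

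Asap1, whose product is a GTPase-activating protein of focal adhesions, led with 104 members among 174 NIH3T3 Ctr9 peaks and had 0 in mESCs. Its TPM was 41.2 in NIH3T3 cells and 7.21 in mESCs. The members began 29.8 kb from its start and ran to its end, and 73 of the 104 were past its midpoint. Of its other NIH3T3 Ctr9 peaks, 17 were left out for H3K27ac and 53 for their q, which shapes where the members began. Med13l, which encodes a subunit of the Mediator kinase module, had 93 members and also 17 mESC peaks, and its TPM differed little (29.6 in NIH3T3 cells and 22.7 in mESCs). Tgfbr3, the gene of the TGF-beta co-receptor betaglycan, had 58 members and a TPM of 50.4 against 0.336.

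Signalling genes among the 20 included Prkca, which encodes protein kinase C alpha, with 49 members and a TPM of 51.1 against 1.43. Fer, a tyrosine kinase gene, had 47 members and 73.3 against 10.2. Map4k4, a kinase gene, had 28 members and 17 mESC peaks, with a TPM of 52.4 in NIH3T3 cells and 52.6 in mESCs.

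Matrix and surface genes among the 20 were Col5a1 with 51 members, Vcan (the proteoglycan versican) with 45, Cemip with 44 and Nid1 (the basement membrane protein nidogen) with 24. Vcan had a TPM of 154.5 against 5.65 and Nid1 537.04 against 104.03. Lrp1, an endocytic receptor gene, had 35 members and 57.5 against 9.81. The splicing regulators Mbnl1 and Rbfox2 had 28 each, as did the drug exporter gene Abcc1, and Rbms1, an RNA-binding protein gene, had 27. The C-mannosyltransferase gene Dpy19l1 had 36 and the Golgi mannosidase gene Man2a1 had 22, with TPMs of 106.7 against 11.1 and 231.07 against 7.57. Gm20388 entered the 20 with 24 members through its annotated length of 4435 kb, which spans many other genes, and had 422 mESC peaks.

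**Figure D3:**
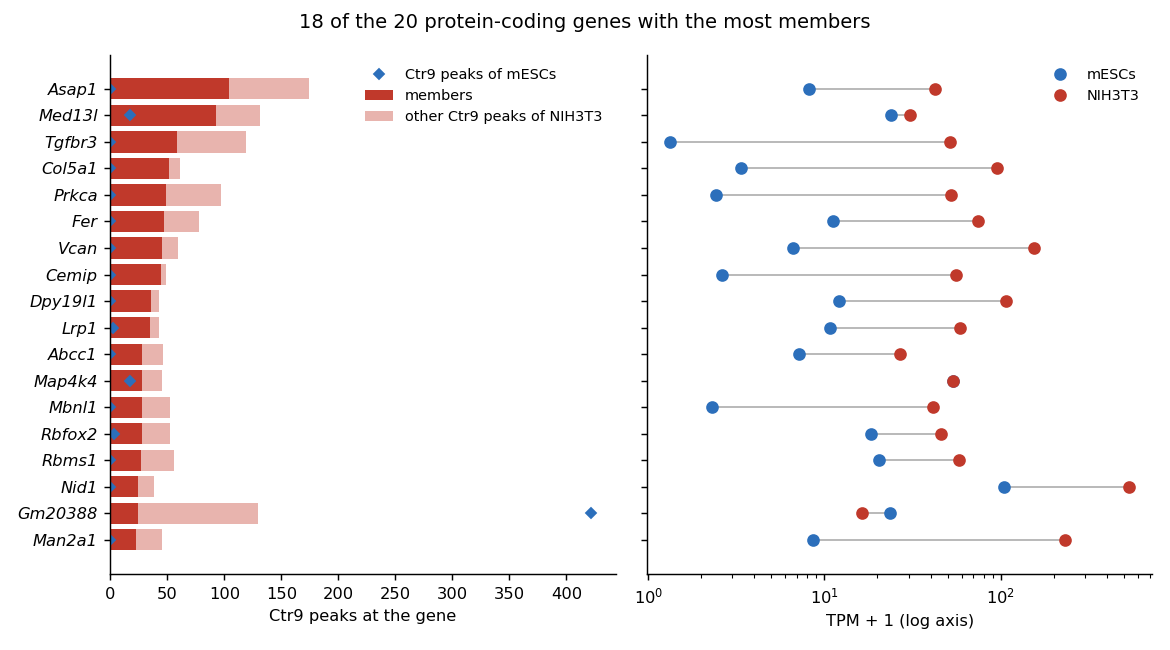
Left, Ctr9 peaks at 18 of the 20 genes with the most members: members (dark bars), other NIH3T3 peaks (light bars) and mESC peaks (diamonds). Right, TPM + 1 of each gene in mESCs and NIH3T3 cells on a log axis, 1 library each. The NIH3T3 point lies to the right by at least 2 times at 15 of the 18 genes, and at 13 of them the diamond is at 0.

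Where the members began within a gene differed from gene to gene. The first of Col5a1 was 47.4 kb from its start, at 31.0% of the gene, and that of Tgfbr3 at 20.1%, whereas Vcan had its first at 8.84%. The rule left out other NIH3T3 Ctr9 peaks at these genes, so a first member need not be the first Ctr9 peak. For H3K27ac it left out 18 at Tgfbr3, 1 at Vcan and 0 at Col5a1, and for their q 43, 13 and 10. Members covered 25.9% of Col5a1, 43.01% of Vcan and 70.6% of Cemip.

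**Figure D4:**
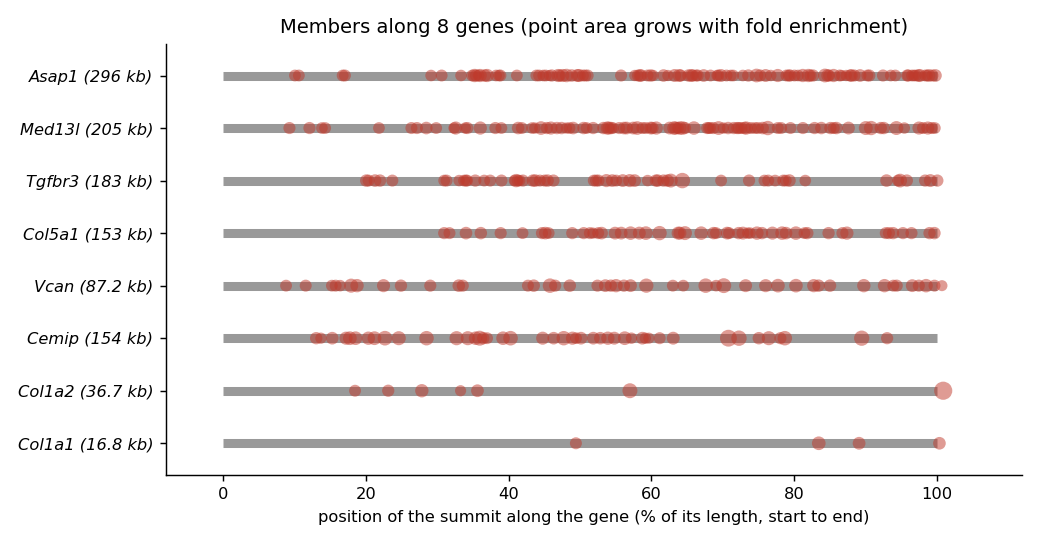
Position of each member's summit along 8 genes, as % of the gene from start to end, with point area growing with fold enrichment. In Asap1, Med13l and Col5a1 most members are past the midpoint (73 of 104, 65 of 93 and 41 of 51), and the largest point of Col1a2 lies just past its end.

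Per length, the densest of the 266 genes were Bola3 (8.19 members per 10 kb), Arl2bp (6.39), Nacad (6.07), Ddx21 (5.45) and Cox18 (5.39). They are short genes with other work: Bola3 acts in mitochondrial iron-sulfur cluster transfer, Ddx21 is an RNA helicase of ribosome biogenesis and Cox18 inserts a cytochrome oxidase subunit in mitochondria. All 5 had 2 or 3 mESC Ctr9 peaks, and none had at least 2 times the TPM + 1 of the other line. Nacad was nearly silent, at 0.363 in NIH3T3 cells and 0.101 in mESCs. Ddx21 had a TPM of 149.6 in NIH3T3 cells and 143.3 in mESCs, and Cox18 had 8.68 and 12.01.

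Among the 3 collagen genes the study names as fibroblast markers, Col5a1 had 51 members, Col1a2 7 and Col1a1 4, and all had 0 Ctr9 peaks in mESCs. Col1a1 and Col1a2 encode the chains of type I collagen and Col5a1 a chain of type V. Their TPMs were 900.9, 1081.8 and 94.5 in NIH3T3 cells and 0.203, 0.132 and 2.38 in mESCs. Col5a1 thus had the most members and, in NIH3T3 cells, the lowest TPM of the 3. Col1a2 had 1 wide member of 16270 bps with a fold enrichment of 13.9, and members covered 76.5% of the gene against 18.5% of Col1a1. At Col1a1, 2 more peaks were left out for H3K27ac and 2 for their q.

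Genes with more members more often had the higher TPM in NIH3T3 cells. Under 20 kb, the 17 genes with at least 5 members and a TPM of at least 1 were too few to tell. Of 803 genes with 1 member, 21.5% had at least 2 times the TPM in NIH3T3 cells, of 633 with 2 to 4 it was 26.2%, of 191 with 5 to 9 it was 37.2%, and of 75 with at least 10 it was 66.7% (50 genes; 95% exact interval 54.8 to 77.1%). Over all 1702 genes with a member and a TPM, the share was 27.03% (460 genes), and 7.40% had at least 2 times the TPM in mESCs, beside 11.3% and 13.5% of all protein-coding genes. Among 3014 genes with other NIH3T3 Ctr9 peaks but no member, the shares were 16.8% and 14.6%. These genes are closer in expression: 88.0% had a TPM of at least 1 in NIH3T3 cells, against 83.8% of genes with members and 49.2% of all. The median log2 ratio of NIH3T3 to mESC TPM + 1 was 0.16 for genes with members and 2.08 for genes with at least 10, against 0 for all. RNA-seq took no part in choosing the members, but genes are not replicates and each line has 1 library. The study reports that Ctr9 binding rose with mRNA level in both cell types. A rule that asks for Ctr9 in NIH3T3 cells and none in mESCs is therefore not independent of the TPM ratio.

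**Figure D5:**
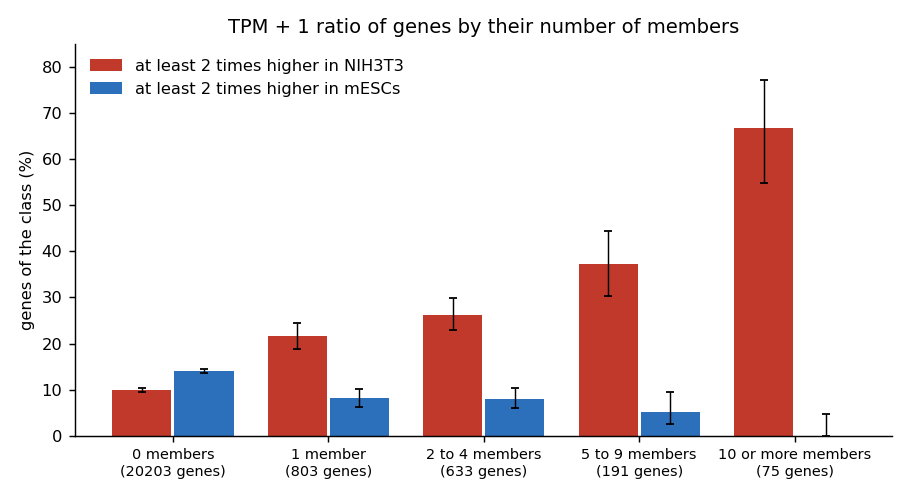
Share of protein-coding genes (%) with at least 2 times the TPM + 1 in NIH3T3 cells or in mESCs, by number of members, with 95% exact intervals that cover counting error only. The NIH3T3 share grows from 21.5% with 1 member to 66.7% with at least 10, where 0 of 75 genes were at least 2 times higher in mESCs.

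The genes with members were also divided by whether they held a Ctr9 peak in mESCs, from a list that the rule used. Median TPM without and with such a peak was 23.6 and 22.7 in NIH3T3 cells, and 2.27 and 19.2 in mESCs. These medians thus differed mostly in mESCs, which shapes the ratios below. All genes without an mESC Ctr9 peak were not compared. Of the 436 genes with members, a TPM and no mESC Ctr9 peak, 51.8% had at least 2 times the TPM in NIH3T3 cells, with a median log2 ratio of 1.14. Of the 1266 that also had an mESC peak, 18.5% did, with a median of 0.03. Among genes with at least 5 members the shares were 84.1% (74 of 88) without and 26.4% (47 of 178) with an mESC peak. In the mirror set, 44.1% of the 951 genes with at least 5 mESC-only peaks had at least 2 times the TPM in mESCs. Genes with at least 5 shared peaks had 10.3% in each direction.

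Long genes can hold more peaks, so genes with a TPM of at least 1 in NIH3T3 cells were also compared within classes of length. Over 100 kb, 52.5% of 221 genes with members and 33.7% of 1123 genes without had at least 2 times the TPM in NIH3T3 cells. From 50 to 100 kb the shares were 36.6% and 19.6%, from 20 to 50 kb 23.4% and 18.3%, and under 20 kb 29.02% and 20.99%. With at least 5 members the shares were 71.01% over 100 kb, 51.4% from 50 to 100 kb and 36.05% from 20 to 50 kb, but 17.6% under 20 kb (3 of 17 genes, with another 3 at least 2 times higher in mESCs; 95% exact interval 3.799 to 43.4%). Across the 1702 genes, Spearman's rho of the number of members was 0.26 with gene length, 0.17 with the log2 ratio, 0.16 with NIH3T3 TPM and 0.0015 with mESC TPM, as a description.

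Members were at 22.9% of the 3662 genes with the highest TPM in NIH3T3 cells (the top 25% of those above 0), 8.19% of the middle 7322, 4.21% of the lowest 3662 and 1.502% of the 7259 listed at 0. Members occurred at every level, and most genes of high TPM had none.

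The genes with at least 5 members and the highest ratios were Il1rl1, Col1a2, Col6a2, Thbs1 and Axl. Il1rl1, the gene of the IL-33 receptor, had 7 members and a TPM of 1054.8 in NIH3T3 cells against 0.0106 in mESCs. Col6a2, a collagen VI chain gene, had 247.7 against 0.0726, Thbs1, the matrix glycoprotein thrombospondin, 275.2 against 0.201, and Axl, a receptor tyrosine kinase gene, 241.9 against 0.742. All 5 had 0 Ctr9 peaks in mESCs.

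In 10 genes with at least 5 members the TPM was at least 2 times higher in mESCs, and the 5 lowest ratios were at Pde8a, Cspg5, Itgb7, Usp44 and Bscl2. Usp44, a deubiquitinase gene, and Pde8a, a cyclic nucleotide phosphodiesterase gene, were listed at 0 in NIH3T3 cells and had TPMs of 3.34 and 10.8 in mESCs. Cspg5, a neural proteoglycan gene, had 0.238 against 7.39. At several of them the members also lay in or within 10 kb past another gene with a TPM of at least 10 in NIH3T3 cells. All 5 members of Usp44 lay so at Metap2 (TPM 186.2), all 5 of Cspg5 at Smarcc1 (49.9) and 3 of the 5 of Bscl2 at Hnrnpul2 (51.2). The part of these neighbours in the counts was not tested.

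The cell types of the labels were read from RNA: 12 of 12 fibroblast markers had at least 2 times the TPM in NIH3T3 cells and 10 of 10 pluripotency markers at least 2 times in mESCs. Of the fibroblast markers, 7 held 85 members, with 17 at Pdgfra, the PDGF receptor alpha gene. Thy1, Col3a1, Postn, S100a4 and Twist1 held 0, at NIH3T3 TPMs of 14.8 to 3337. The 10 pluripotency genes held 0 members, where 7.77% of all genes held any, and all 10 had an mESC Ctr9 peak, against 37.3% of all genes. With 10 genes, 0 is little below that 7.77% and says little. The rule also took part: of the 5 NIH3T3 Ctr9 peaks at Klf4, 4 were left out for overlap with mESC Ctr9 and 1 for its q.

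Gene groups of fibroblast function are given by how many of their genes held members, beside 7.77% of all protein-coding genes. The groups were not matched for TPM, and 22.9% of the genes with the highest TPM in NIH3T3 cells held a member. Differences between the groups were not tested. Collagens had members at 6 of 12 genes (89 in all), led by Col5a1 and then Col6a3 with 16, and 12 of 12 had at least 2 times the TPM in NIH3T3 cells. Matrix proteins and their enzymes had them at 10 of 18 (56 in all), led by Tnc (tenascin C) with 19 and Timp3, a metalloprotease inhibitor gene, with 10. Lox, which crosslinks collagen, had 3 at a TPM of 715.7 against 0.0299. Fn1, the fibronectin gene, had 1 member and 44 mESC peaks, at 406.2 against 75.7.

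Adhesion genes had members at 5 of 12 (39 in all), with 18 at Cd44, the hyaluronan receptor gene, and 14 at Itgb1, the integrin beta 1 gene. Actin cytoskeleton genes had them at 7 of 15 (61 in all), led by Cald1 (caldesmon) with 20, Myh9 (a nonmuscle myosin heavy chain) with 13 and Tpm1 (tropomyosin) with 10. Growth factor receptor genes had them at 5 of 8 (39 in all), with 17 at Pdgfra and 10 at Igf1r. Endocytosis and caveolae genes had them at 4 of 6 (47 in all), of which 35 were at Lrp1.

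Lists of regulator genes were also read. YAP and TEAD genes had members at 3 of 9 (12 in all, 9 at the target gene Axl), AP-1 genes at 2 of 8 (6 in all, at Fosl2 and Fosl1) and TGF-beta genes at 1 of 9, with 2 at Smad3. Over all protein-coding genes 7.77% held a member. All 8 AP-1 genes held some NIH3T3 Ctr9 peak. Of the 9 NIH3T3 Ctr9 peaks at Fosl2, 5 overlapped H3K27ac and 4 were members, the strongest at 14.5 in fold enrichment with its summit 577 bps past the end. Of these lists, the numbers of genes with at least 2 times the TPM in NIH3T3 cells were 16 of 18 for matrix, 10 of 12 for adhesion, 13 of 15 for actin, 7 of 8 for receptors, 5 of 6 for endocytosis, 6 of 9 for YAP and TEAD, 4 of 8 for AP-1 and 5 of 9 for TGF-beta, beside 11.3% of all genes.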

How the data were processed

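Peak lists from ChIP-seq and transcript tables from RNA-seq were used, with 1 library per group. The authors mapped ChIP-seq reads to mm10 (bowtie2 2.3.5.1), filtered them by the ENCODE blacklist and ran the peak caller macs2 2.2.6 with a q-value cutoff of 0.01. Each deposited list gives a score, the fold enrichment (a ratio to the local background), the −log10 p and −log10 q of a peak and its summit. The authors deposited estimated counts and TPM per transcript from kallisto 0.46.1 on GENCODE M19. ChIP-seq depth is unknown, and RNA-seq totals are given above. Input libraries were not used here.

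Overlap was at least 1 bp. A peak was placed by its summit against protein-coding genes of GENCODE M21 (GRCm38), with starts and ends widened by 1 kb. The TPM of a gene was that of its highest transcript, and ratios used a pseudocount of 1. Of 21938 protein-coding genes, 21905 had a TPM. Members at more than 1 gene (239) counted at each. Sequence windows came from the RefSeq GRCm38 genome. Comparison sets used the same q. With no replicate, no test across samples was made, and shares carry 95% exact Clopper-Pearson intervals. The code was tested on simulated data and passed 5 of 5 checks. Python 3.11.15, pandas 2.3.3, NumPy 2.4.6, SciPy 1.17.1 and Matplotlib 3.10.9 were used.

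The named genes were the 20 with the most members, the 5 with the most per length among those with at least 5, those at the 5 strongest members, the 5 highest and 5 lowest ratios among genes with at least 5, Col1a1, Col1a2 and Col5a1, and the leading genes of each list. Of the 20, 2 are not reported here by name. The members and the lists were chosen with earlier results of these data known. Results were recomputed with 49 other settings (of q, overlap, distance, gene type, pseudocount, transcript sum and TPM minimum) and with 11 more chosen after seeing the data.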

Additional observations from a re-analysis of the deposited data

Results flagged for a closer look

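Outside the lists used to choose the members, H3K27ac of mESCs overlapped 30 of the 6619 members (0.453%; 95% exact interval 0.306 to 0.646%), above the 0.0453% that a count of 0 allows (3 counts of the total). Any count above 3 exceeds that limit, so passing it says little. An expected overlap was not computed. Of these 30, 20 were in gene bodies, 6 outside genes, 3 near gene ends and 1 near a gene start. They had neither a Ctr9 peak in mESCs nor H3K27ac in NIH3T3 cells. The same mESC list overlapped 1.52% of the shared Ctr9 peaks without H3K27ac and 38.8% of the NIH3T3-only peaks with H3K27ac. NELFA and RNAPII Ser5p of mESCs overlapped 2 members each, and RNAPII Ser2p overlapped 0, which allows a share of up to 0.0453% (3 counts of the total; the 95% exact upper limit is 0.0557%).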

How the results depend on the processing

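Each of 9 results was recomputed with its alternatives (60 values), of which 24 stayed within 1.5 times (counts) or within the 95% interval (shares and medians), 36 moved and 0 changed sign. Only the median log2 ratio could change sign, since counts and shares cannot be negative. No paired analysis was possible because each group has 1 library and no result comes from a test. There were 10481 members with a −log10 q of at least 2, 1204 at 10, and 3149 stretches when joined over 3 kb. Genes with at least 5 members were 497, 24 and 59 under these settings, and 171 when members within 1 kb of such a peak were also left out. Of the 59 genes with at least 5 joined stretches, 69.5% had at least 2 times the TPM in NIH3T3 cells, against 45.5% of the 266. With a −log10 q of at least 2, 70.6% were in bodies and 21.9% outside. At 10, 6.98% were near ends, 60.96% in bodies and 30.4% outside, 35.7% of genes had at least 2 times the TPM in NIH3T3 cells, and the median log2 ratio was 0.35. Leaving out members within 1 kb of such a peak gave 1.00% near starts, 4.88% near ends and 25.4% outside, and overlap by summit gave 2.18% near starts and 6.66% near ends. A distance of 500 bps gave 0.801% near starts, 3.10% near ends, 70.5% in bodies and 25.6% outside, and 2 kb gave 5.86%, 11.7%, 61.4% and 21.05%. Genes of every type gave 4.59% near starts, 7.25% near ends and 19.7% outside. A pseudocount of 0.1 gave a share of 30.5%, and a TPM of at least 1 in either line 31.0% and a median log2 ratio of 0.29. With the 22016 strongest mESC peaks, 6.59% were near ends and the median log2 ratio was 0.092. For shares moved by distance or gene type, the wider or narrower classes are the cause, and for the others the cause was not tested. Unknown ChIP-seq depth limits what absence from a list means.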

Other observations

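Noncoding genes held 241 of the 1596 members outside protein-coding genes. Pvt1, a lincRNA gene beside the oncogene Myc, had 72, with a TPM of 9.42 in NIH3T3 cells and 4.11 in mESCs. Lncppara had 16, with 2.06 in NIH3T3 cells and listed at 0 in mESCs. On chromosome 10, Gm47221 had 9 and the overlapping Gm47223 had 7. The TPM of Gm47221 was 3.89 in NIH3T3 cells and 1.73 in mESCs. Gm47223 had 24.9 in NIH3T3 cells and was listed at 0 in mESCs.

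By chromosome, members were densest on chromosome 15, with 5.29 per Mb (550 members), and sparsest among those with any on X, with 0.526 per Mb (90 members). All NIH3T3 Ctr9 peaks had 14.4 and 1.57 per Mb there, and members were 36.7% and 33.5% of them, against 30.1% of the whole list. Bins of 1 Mb that held 50% of the members were 155 of 2737 (5.66%). The fullest was 64 to 65 Mb on chromosome 15, at Asap1, with 117, and another bin of that chromosome, at Pvt1, had 73.

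Among genes listed at 0 in NIH3T3 cells, 5 had at least 5 members: Kcnq1 and the nonagouti gene a with 9 each, and Usp44, Pgpep1l and Pde8a with 5 each. Apart from Usp44 and Pde8a, they were chosen after their values were seen. The 9 members of the gene a were also in Raly, which it overlaps and which had a TPM of 128.9, and the 5 of Pgpep1l lay within 10 kb past the end of Igf1r (22.2). Kcnq1 holds the antisense transcript Kcnq1ot1, and the peaks carry no strand.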
